A study of Homo sapiens with 6 samples.

Results

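The 31 genes described here encode enzymes of cholesterol synthesis, the proteins that control the route, and enzymes that make and desaturate fatty acids. They were taken by symbol from a table of 37887 gene rows, and each of the 31 was found and passed the filter on low counts. They comprised 19 sterol enzymes, 6 regulators (a class that includes the sterol carrier STARD4) and 6 genes of fatty acid synthesis. The libraries came from BT-549, an established triple-negative breast cancer cell line, and the labels describe cells cultured in triplicate. The 3 control libraries carry the title of a control shRNA and the treatment label vehicle (0.1% DMSO). The 3 shPBRM1 libraries carry the title of an shRNA against PBRM1 and the label DOX (500 ng/ml), the drug that switches on the tet-inducible shRNA. The titles read as 2 lines, while the series design describes vehicle and DOX on a single tet-inducible line. For its chromatin assays, the paper names BT-549/CshRNA cells beside BT-549/PBRM1shRNA cells. Whether the control libraries came from the same line as the shPBRM1 libraries is not settled. Silencing of PBRM1, exposure to DOX and any difference of line or vector therefore cannot be told apart in these data. The comparison asks how transcript levels differed between cells silenced for PBRM1, a subunit of the PBAF chromatin remodeling complex, and control cells. Poly(A) RNA was sequenced, and the deposited values were raw read counts per gene. Total counts were 36429395, 47996676 and 49784336 for the control libraries (replicates 1 to 3), and 60221790, 40035400 and 65096297 for the shPBRM1 libraries.

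Cells build cholesterol from acetyl-CoA through mevalonate, the isoprenoid units, squalene and lanosterol, and the later steps reshape the sterol ring and side chain. The SREBP transcription factors, encoded by SREBF1 and SREBF2, turn on these enzymes and those of fatty acid synthesis. When membranes hold little sterol, SCAP escorts SREBPs from the endoplasmic reticulum to the Golgi, where proteases release the active factor. The INSIG proteins hold SCAP back when sterol is plentiful. Tumor cells draw on these routes for membrane lipids, and desaturases such as SCD set how much of the fatty acid pool is unsaturated. Protein, processed SREBP, sterol and lipid levels were not measured in these libraries.

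PBRM1, the silenced gene, was measured at 157, 157 and 161 CPM (library-scaled counts, with edgeR's TMM factors) in control replicates 1 to 3. It stood at 43.3, 40.9 and 41.7 CPM in shPBRM1 replicates 1 to 3. The groups did not overlap, and PBRM1 fell by 1.91 on the log2 scale (SE 0.027, n = 3 and 3, adjusted p = 9.98e-23 with edgeR's quasi-likelihood test). To check the label of the line, the receptor genes were read in each library. ESR1 had at most 2 counts and PGR at most 12 counts in any library, and ERBB2 stood at 51.3 CPM in control and 50.02 CPM in shPBRM1 cells. The 13 markers of leukocytes, endothelium and adipocytes summed to 1.69, 1.93 and 2.08 CPM in the control libraries and to 1.90, 1.95 and 2.24 CPM in the shPBRM1 libraries. The most abundant of them, KDR, reached 82 counts, and CD3E and ADIPOQ had none. The 3 of them that were tested went opposite ways at these low counts, PTPRC with a log2 fold change of -2.55, KDR of 1.65 and CD14 of 1.004. The mesenchymal markers of the line were all well detected and moved too, with VIM and CDH2 higher by 0.31 and 0.54 and ZEB1 and FN1 lower by 0.55 and 1.33 on the log2 scale. Their part in the other results was not tested. Among libraries of the same group, shPBRM1 replicate 1 stood apart, since its counts gave a chi-square of 21.5 and 24.9 per degree of freedom against replicates 2 and 3. The other same-group pairs lay between 4.92 and 7.35.

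In shPBRM1 cells, 17 of the 31 genes rose and 8 fell at an adjusted p under 0.05 (edgeR, adjusted over the 15450 genes tested), and 6 did not pass. These shares were 54.8% higher and 25.8% lower, beside 31.5% of all tested genes higher, 33.2% lower and 64.7% called in either direction. The changes were small. None of the 31 genes passed a fold change of 2, where 12.6% of all tested genes did, 9.68% lower and 2.87% higher. The median log2 fold change was 0.14 for the 31 genes and -0.01 for all tested genes, and the median size of change was 0.22 against 0.35. In all, 19 of the 31 genes changed by less than the median size over all genes. The groups did not overlap for 26 of the 31 genes, 19 of them higher and 7 lower, beside 68.3% of all tested genes, 33.3% higher and 35.0% lower. Without shPBRM1 replicate 1, 18 genes rose and 7 fell. Because each library is a bulk sample, fewer cells of one kind and less RNA per cell cannot be told apart in any of these values.

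**Figure D1:**
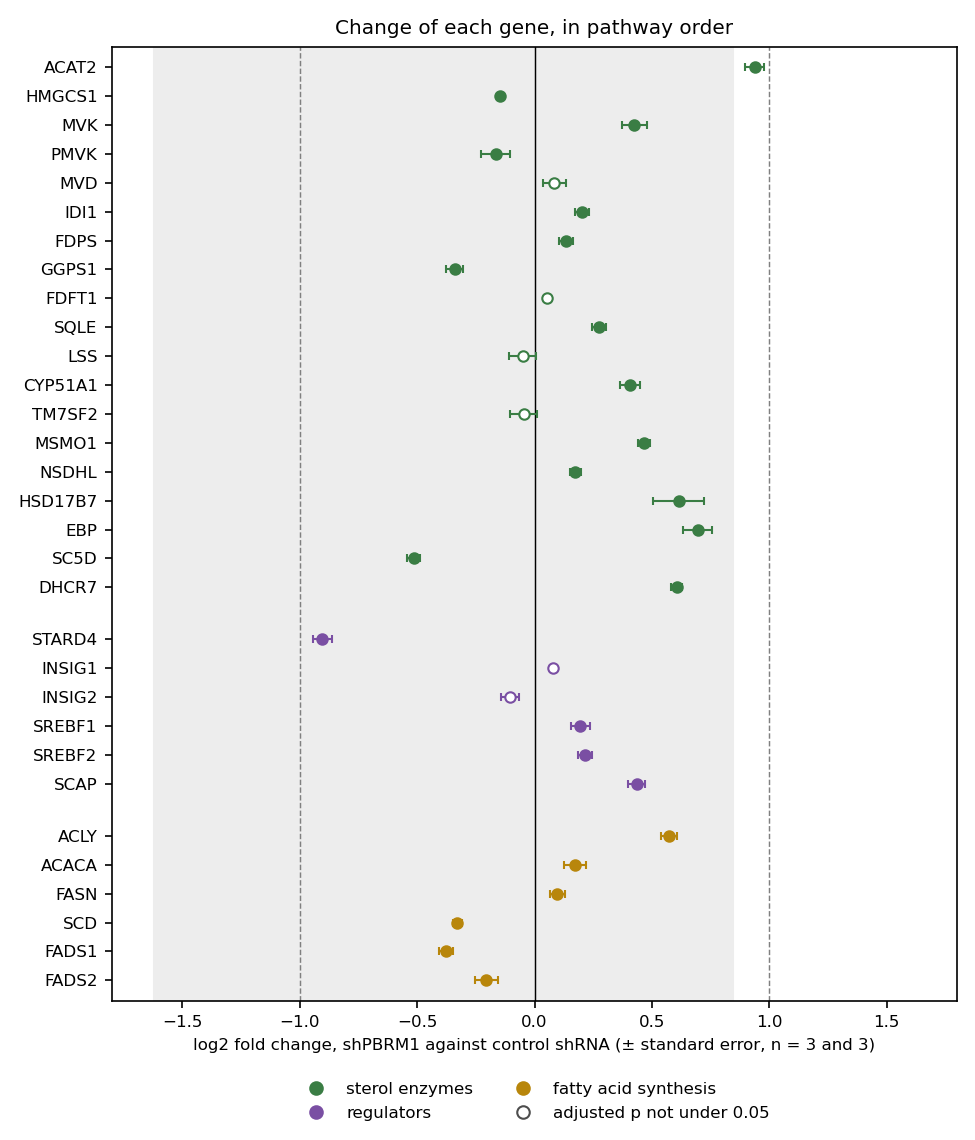
Log2 fold change of each of the 31 genes in shPBRM1 against control cells, with its standard error (n = 3 and 3), in pathway order and colored by role. Open circles mark the 6 genes with an adjusted p not under 0.05, dashed lines mark a change of 2-fold, and the grey band holds the log2 fold changes from the 5th to the 95th percentile of all tested genes; ACAT2 at 0.94 and STARD4 at -0.90 lie nearest the dashed lines.

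The early, mevalonate part of the route held genes of both directions, as did all tested genes. Of its 8 genes, 4 rose (50%, beside 31.5% of all tested genes), 3 fell (37.5%, beside 33.2%) and 1 did not pass, with a median log2 fold change of 0.11. ACAT2, the cytosolic thiolase that joins acetyl-CoA units ahead of this route, lies at chr6:159760328-159779055 in the GRCh38 build and had the largest increase of the 31 genes. It stood at 37.9, 37.9 and 36.8 CPM in control replicates 1 to 3 and at 73.2, 68.1 and 74.1 CPM in shPBRM1 replicates 1 to 3. Each shPBRM1 library thus held more than each control library, and ACAT2 rose 1.92-fold (log2 fold change 0.94, SE 0.040, edgeR adjusted p = 6.56e-15). HMGCS1, which encodes the HMG-CoA synthase of the next step and was named after its values had been seen, instead fell slightly, from 178, 179 and 181 CPM to 162, 161 and 163 CPM (log2 fold change -0.15, edgeR adjusted p = 6.03e-04). The ratio of ACAT2 to HMGCS1 counts within a library accordingly lay between 0.203 and 0.213 in control and between 0.424 and 0.455 in shPBRM1 libraries.

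Farther along, the kinase gene MVK rose by 0.42 on the log2 scale, the isomerase gene IDI1 by 0.20 and the farnesyl diphosphate synthase gene FDPS by 0.14. The second kinase gene, PMVK, stood at 26.4, 29.3 and 28.8 CPM in control and 24.5, 24.3 and 26.5 CPM in shPBRM1 libraries, so that the groups overlapped by a small margin. PMVK fell by 0.16 on the log2 scale (edgeR adjusted p = 0.0206), a call that was lost without control replicate 2 (adjusted p = 0.0968), control replicate 3 (0.0712), shPBRM1 replicate 1 (0.0806) or shPBRM1 replicate 2 (0.0790). The decarboxylase gene MVD did not pass, with a log2 fold change of 0.08. GGPS1 makes geranylgeranyl diphosphate, which leaves the sterol route for protein prenylation. It stood at 34.0, 33.5 and 34.8 CPM in control and at 27.2, 25.7 and 27.8 CPM in shPBRM1 replicates. All 3 shPBRM1 libraries were below all control libraries, and GGPS1 fell by 0.34 on the log2 scale (SE 0.038, edgeR adjusted p = 8.08e-06). ARID4B, a tested gene that overlaps GGPS1 on the opposite strand in the annotation, fell by 0.40. TBCE, which overlaps GGPS1 on the same strand, was not among the tested genes.

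Of the 3 genes of the steps from farnesyl diphosphate to lanosterol, 1 rose and 2 did not pass (33.3% called, beside 64.7% of all tested genes). The epoxidase gene SQLE rose by 0.28 on the log2 scale (edgeR adjusted p = 2.56e-06), from a mean of 375 CPM to a mean of 454 CPM. The squalene synthase gene FDFT1 was at a log2 fold change of 0.05, the cyclase gene LSS at -0.05, and neither passed, with edgeR adjusted p = 0.242 and 0.321. LSS passed without control replicate 1, with a log2 fold change of -0.10 and an adjusted p of 0.0412.

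The steps after lanosterol held 6 of the 11 increases among the sterol enzymes. Of these 8 genes, 6 rose (75%, beside 31.5% of all tested genes), 1 fell (12.5%, beside 33.2%) and 1 did not pass, and their median log2 fold change was 0.44. EBP, the sterol isomerase, stood at 20.9, 21.7 and 22.3 CPM in control and at 37.7, 34.6 and 32.9 CPM in shPBRM1 replicates 1 to 3. The lowest shPBRM1 library held more than the highest control library, and EBP rose 1.62-fold (log2 fold change 0.69, SE 0.063, edgeR adjusted p = 7.01e-10). HSD17B7, a sterol ketone reductase of the demethylation steps, was the least abundant of the 31 genes per length. It rose from 6.72, 5.23 and 5.95 CPM to 9.06, 8.79 and 9.37 CPM (log2 fold change 0.61, SE 0.11, edgeR adjusted p = 8.47e-06). Its pseudogene HSD17B7P2, with which reads could be shared, stood at 0.741 CPM in control and 0.617 CPM in shPBRM1 cells and did not pass. MSMO1, the methyl oxidase of the same steps, also named after its values had been seen, rose by 0.47 from 148, 146 and 145 CPM to 198, 199 and 210 CPM. The demethylase gene CYP51A1 rose by 0.41 and the dehydrogenase gene NSDHL by 0.17, whereas the reductase gene TM7SF2 had a log2 fold change of -0.05 and did not pass.

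The last pair of steps split. SC5D, which inserts a double bond into the sterol ring and so makes the substrate of DHCR7, lies at chr11:121292453-121308694. It stood at 74.7, 74.8 and 77.8 CPM in control and at 54.3, 51.7 and 53.0 CPM in shPBRM1 replicates. All shPBRM1 libraries were lower, and SC5D fell by 0.51 on the log2 scale (SE 0.028, edgeR adjusted p = 3.70e-11). DHCR7, the reductase of the last ring step, lies on the same chromosome at chr11:71428193-71452868. It stood at 243, 252 and 248 CPM in control and at 378, 384 and 369 CPM in shPBRM1 replicates, and was named after its values had been seen. The groups were apart, and DHCR7 rose 1.52-fold (log2 fold change 0.61, SE 0.023, edgeR adjusted p = 2.52e-12). The ratio of DHCR7 to SC5D counts was between 3.19 and 3.37 in control libraries and between 6.95 and 7.42 in shPBRM1 libraries. In sum over the 19 sterol enzymes, the level went from 1983 ± 16.9 CPM in control to 2308 ± 7.84 CPM in shPBRM1 cells (SD, n = 3 each).

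**Figure D2:**
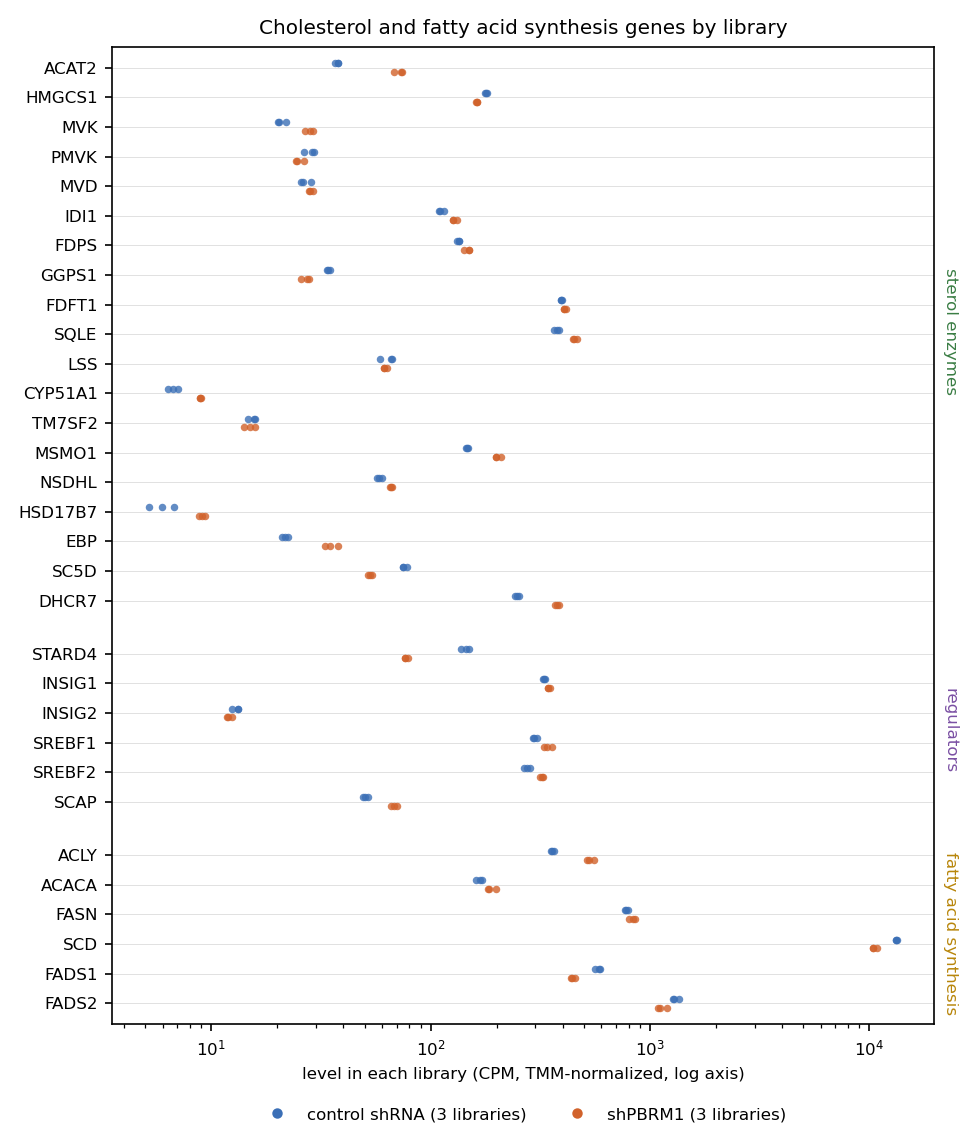
Level of each of the 31 genes in each library, in CPM on a log axis, with the 3 control libraries in blue and the 3 shPBRM1 libraries in orange. Points of the same group lie close together for most genes; SCD lies near the right edge, with group means of 13271 and 10569 CPM, and the groups of STARD4, SC5D and SCD are visibly apart with shPBRM1 to the left.

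Among the 6 regulators, 3 rose, 1 fell and 2 did not pass (66.7% called in either direction, near the 64.7% of all tested genes), with a median log2 fold change of 0.14. The gene that fell was the sterol carrier STARD4. SREBF2, which encodes the SREBP that acts mainly on cholesterol genes, stood at 275, 285 and 268 CPM in control and at 321, 326 and 315 CPM in shPBRM1 replicates. SREBF1, which encodes the SREBP forms that act on fatty acid genes, stood at 297, 306 and 292 CPM and at 338, 357 and 329 CPM. Both were higher in every shPBRM1 library than in any control library, and rose by 0.22 and 0.20 on the log2 scale (edgeR adjusted p = 3.92e-05 and 2.20e-04). Their counts kept a like proportion, with a ratio of SREBF1 to SREBF2 between 1.07 and 1.09 in control and between 1.05 and 1.10 in shPBRM1 libraries. SCAP, the sterol sensor and escort, stood at 49.2, 51.8 and 50.03 CPM in control and at 68.2, 65.7 and 70.2 CPM in shPBRM1 replicates. SCAP rose by 0.43 (SE 0.035, edgeR adjusted p = 2.10e-09), the largest increase of the regulators.

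The INSIG genes, whose products retain SCAP, changed less. INSIG1, itself a well known SREBP target, stood at 328, 331 and 325 CPM in control and at 344, 344 and 351 CPM in shPBRM1 replicates. Its groups did not overlap, but the log2 fold change was 0.08 (SE 0.013) and did not pass (edgeR adjusted p = 0.0807). It passed with the replicate number as a block (adjusted p = 0.0311), with DESeq2 (adjusted p = 0.0163) and without shPBRM1 replicate 1 (adjusted p = 0.0487). INSIG2 stood at 13.2, 13.2 and 12.5 CPM in control and at 11.96, 12.5 and 11.8 CPM in shPBRM1 replicates, with a log2 fold change of -0.10 (edgeR adjusted p = 0.222). STARD4, which carries cholesterol between membranes and is an SREBP target, lies at chr5:111496033-111512590 and had the largest decrease of the 31 genes. It stood at 150, 137 and 146 CPM in control and at 76.4, 76.0 and 78.8 CPM in shPBRM1 replicates. The shPBRM1 libraries were near each other and far below every control library, and STARD4 was 1.87-fold lower (log2 fold change -0.90, SE 0.041, edgeR adjusted p = 6.19e-16). The antisense gene STARD4-AS1 had a log2 fold change of 0.18 and did not pass.

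Other proteins of SREBP cleavage, sterol-regulated decay and SREBP turnover were compared through a separate list of 10 genes. Of these, 8 rose (80%, beside 31.5% of all tested genes) and 2 did not pass, and their median log2 fold change was 0.46. SPRING1, which supports the protease that cleaves SREBPs and is listed in the table by its older symbol C12orf49, stood at 28.7, 28.8 and 26.7 CPM in control and at 54.9, 56.6 and 55.6 CPM in shPBRM1 replicates. The shPBRM1 libraries were all higher, and SPRING1 rose by 0.99 (SE 0.038, edgeR adjusted p = 1.69e-14). ERLIN1, part of a complex that takes proteins of the endoplasmic reticulum to degradation, rose by 0.74 from 117, 119 and 120 CPM to 197, 197 and 201 CPM. Named after their values had been seen, the SREBP protease genes MBTPS1 and MBTPS2 rose by 0.53 and 0.39, and the ubiquitin ligase genes RNF139 and RNF145 by 0.32 and 0.55. FBXW7, which marks nuclear SREBPs for turnover, rose by 0.37, and FAF2 and PAQR3 did not pass.

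Promoter sequences of RefSeq (GRCh38.p14, 300 bases around a listed start of each gene) were present for 27 of the 31 genes and were searched on both strands. That start can differ from the gene positions given here, and the matches are those of the listed start alone. The entry lies wholly inside the annotated gene for ACLY, CYP51A1, DHCR7, EBP, FADS1, FADS2, MVK, PMVK, SC5D and SCAP. For GGPS1 and IDI1 it lies outside the gene. Sequences are shown for the genes with the largest called changes in each direction among those with an entry. SREBF2 is shown because it held the only match to the sterol regulatory element (SRE) letters. Each stretch lies before the listed start of its promoter and is cut to the part with matches. Those of DHCR7, EBP, SC5D and FADS1 lie wholly inside the annotated gene. Capitals mark the SRE letters (TCACNCCAC), the CCAAT box (CCAAT, or ATTGG on the other strand) and the GC box (GGGCGG, or CCGCCC on the other strand). The stretches are DHCR7 chr11:71448397-71448603 (minus strand), EBP chrX:48521607-48521792 (plus), HSD17B7 chr1:162790577-162790664 (plus), SC5D chr11:121292577-121292729 (plus), FADS1 chr11:61817193-61817253 (minus), STARD4 chr5:111512572-111512706 (minus) and SREBF2 chr22:41832962-41833104 (plus).
DHCR7: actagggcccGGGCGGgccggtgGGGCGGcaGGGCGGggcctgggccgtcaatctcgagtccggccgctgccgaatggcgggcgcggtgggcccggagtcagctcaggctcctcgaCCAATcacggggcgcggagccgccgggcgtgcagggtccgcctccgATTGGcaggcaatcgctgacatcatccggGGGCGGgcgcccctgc
EBP: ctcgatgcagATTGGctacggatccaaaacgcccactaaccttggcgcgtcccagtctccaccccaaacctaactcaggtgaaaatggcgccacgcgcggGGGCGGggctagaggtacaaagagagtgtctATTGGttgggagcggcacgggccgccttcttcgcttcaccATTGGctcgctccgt
HSD17B7: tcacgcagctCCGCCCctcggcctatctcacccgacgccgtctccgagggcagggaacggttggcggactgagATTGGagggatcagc
SC5D: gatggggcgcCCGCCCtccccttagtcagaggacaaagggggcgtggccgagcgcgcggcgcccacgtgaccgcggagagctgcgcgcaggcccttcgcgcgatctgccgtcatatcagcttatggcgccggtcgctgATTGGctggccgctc
FADS1: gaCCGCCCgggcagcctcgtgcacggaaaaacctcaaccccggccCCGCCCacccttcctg
STARD4: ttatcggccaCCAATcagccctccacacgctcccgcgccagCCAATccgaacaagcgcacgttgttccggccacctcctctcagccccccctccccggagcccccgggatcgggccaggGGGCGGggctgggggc
SREBF2: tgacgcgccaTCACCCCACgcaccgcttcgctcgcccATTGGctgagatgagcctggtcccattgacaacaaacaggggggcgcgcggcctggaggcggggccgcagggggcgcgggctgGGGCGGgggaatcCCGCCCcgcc

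A CCAAT box was present in 17 of the 27 promoters (63.0%), beside 34.6% of 35116 RefSeq promoters of the same length, and a GC box in 24 (88.9%), beside 45.0%. The SRE letters were in 1 of the 27 (3.70%), that of SREBF2, beside 1.13%. An E-box of the form TCANNTGA, which SREBPs can also bind, was in 2 (7.41%), those of EBP and INSIG1, beside 7.31%. The letters of the interferon-stimulated response element (TTTC, 2 bases of any kind, TTTC) were in none, beside 3.57% of all promoters. The background held every entry of that length and not only those of genes tested here. These shares were therefore not matched for expression. The CCAAT box was in 9 of the 14 promoters of genes that rose, in 4 of the 8 of genes that fell and in 4 of the 5 of genes that did not pass. STARD4, which fell, and EBP and DHCR7, which rose, each had more than a single CCAAT box. No matches of different motifs overlapped. A match is a run of letters and does not show that a factor binds there.

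All 6 genes of fatty acid synthesis passed the test, beside 64.7% of all tested genes, with 3 higher, 3 lower and a median log2 fold change of -0.05. Of these 6, ACLY, ACACA and FASN rose, and the desaturase genes SCD, FADS1 and FADS2 fell. This grouping was made with the values known and was not tested. Outside the 6, and named after their values had been seen, desaturase genes went both ways (SCD5 higher, FADS3 lower). So did elongase genes (ELOVL5 higher, ELOVL6 lower). ACLY, which splits citrate into acetyl-CoA, lies at chr17:41866908-41930542 and stood at 364, 358 and 355 CPM in control and at 557, 517 and 527 CPM in shPBRM1 replicates. The groups were far apart, and ACLY rose 1.49-fold (log2 fold change 0.57, SE 0.034, edgeR adjusted p = 2.17e-11). ACACA, the acetyl-CoA carboxylase, stood at 162, 167 and 172 CPM in control and at 198, 182 and 184 CPM in shPBRM1 replicates, and rose by 0.17 (edgeR adjusted p = 5.44e-04). FASN, the fatty acid synthase, stood at 775, 797 and 768 CPM and at 840, 858 and 805 CPM. The FASN groups lay close to each other, with a log2 fold change of 0.10 (SE 0.031, edgeR adjusted p = 0.0289). The FASN call was lost without control replicate 1 (adjusted p = 0.0850), control replicate 3 (0.115) or shPBRM1 replicate 2 (0.0556), and with scaling by library size alone (0.283).

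SCD, the desaturase that makes monounsaturated fatty acids, lies at chr10:100347124-100364834 and was among the most abundant transcripts of these cells, at rank 3 of all genes by share of reads in control and rank 4 in shPBRM1 cells. It took 1.35%, 1.34% and 1.35% of all counts in control replicates 1 to 3 and 1.04%, 1.05% and 1.02% in shPBRM1 replicates 1 to 3. No shPBRM1 library reached the lowest control library, and SCD fell from 13271 ± 97.4 to 10569 ± 244 CPM (SD, n = 3 each, log2 fold change -0.33, SE 0.020, edgeR adjusted p = 6.89e-13). Its pseudogene SCDP1, with which reads could be shared, stood at 4.0 CPM in control and 3.22 CPM in shPBRM1 cells. FADS1 and FADS2, neighbors at chr11:61799625-61829318 and chr11:61792980-61867354 that overlap in the annotation, encode the desaturases of polyunsaturated fatty acids. FADS1 stood at 592, 563 and 583 CPM in control and 457, 438 and 443 CPM in shPBRM1 replicates, and FADS2 at 1278, 1356 and 1282 CPM and 1114, 1193 and 1089 CPM. Both were lower in every shPBRM1 library, and fell by 0.38 and 0.20 on the log2 scale (edgeR adjusted p = 1.52e-08 and 6.52e-05). FEN1, which overlaps FADS2 on the same strand, rose by 0.52.

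SCD carried most of the counts of these genes. Summed over the 31 genes, the level was 19554 ± 109 CPM in control and 17177 ± 315 CPM in shPBRM1 cells (SD, n = 3 each). Without SCD, the 5 other genes of fatty acid synthesis summed to 3190 ± 44.2 and 3134 ± 76.0 CPM. SCD5, the other human desaturase of this kind, moved the opposite way, from 25.4, 27.2 and 28.7 CPM in control to 63.2, 66.6 and 64.4 CPM in shPBRM1 replicates (log2 fold change 1.253, SE 0.056, edgeR adjusted p = 3.11e-16). The ratio of SCD to SCD5 counts, not corrected for length, lay between 466 and 519 in control and between 162 and 165 in shPBRM1 libraries. The ratio of ACLY to SCD counts lay between 0.0265 and 0.0276 in control and between 0.0476 and 0.0535 in shPBRM1 libraries. Ratios use raw counts of the same library and so do not depend on the scaling between libraries. Their pairs of genes were chosen after the values had been seen and were given no test.

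**Figure D3:**
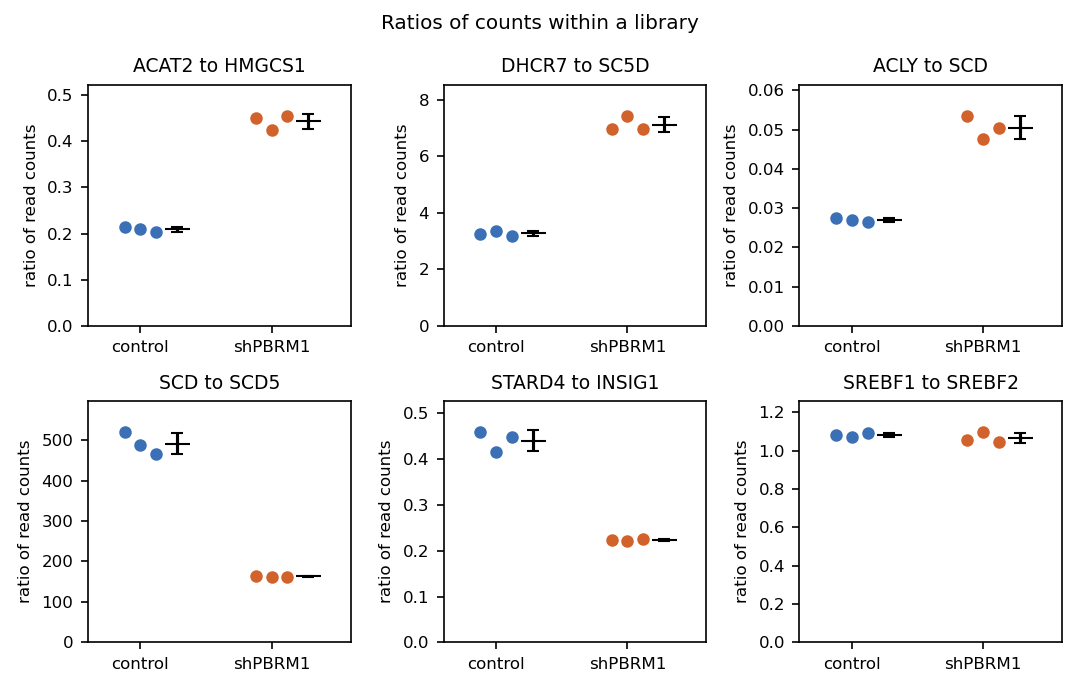
Ratio of the raw counts of paired genes within each library, with 1 point per library and the mean and SD beside the points (n = 3 per group), on axes that start at 0. The ratios of ACAT2 to HMGCS1, DHCR7 to SC5D and ACLY to SCD are higher in all shPBRM1 libraries, those of SCD to SCD5 and STARD4 to INSIG1 are lower in all of them, and SREBF1 to SREBF2 overlaps between the groups.

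Levels of different genes were compared per length, as CPM divided by the exon length of the gene in kilobases. In control cells SCD led with 2475 CPM per kb, followed by FADS2 with 118, INSIG1 with 89.9, SQLE with 87.2, FASN with 83.3, FDFT1 with 75.8, ACLY with 68.8 and DHCR7 with 59.6 CPM per kb. The lowest were MVK with 3.21, CYP51A1 with 1.87 and HSD17B7 with 1.249 CPM per kb. In shPBRM1 cells SCD still led with 1971 CPM per kb, and SQLE with 105, FADS2 with 103 and ACLY with 102 CPM per kb were next, ahead of INSIG1 with 94.8, DHCR7 with 90.6 and FASN with 89.1. The exon length is the union of all annotated exons, so that a gene with long alternative exons reads low on this scale. CYP51A1 is also overlapped on the same strand by the protein-coding genes AC000120.2 and AC000120.3. Their part in its low level, and that of the pseudogene in the level of HSD17B7, was not tested.

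Genes that act around these routes were compared through further lists, whose counts stand beside 33.2% lower, 31.5% higher and 64.7% called in either direction among all tested genes. Of the 13 genes of sterol uptake, transport and storage, 6 fell (46.2%) and 5 rose (38.5%), with a median log2 fold change of -0.20. NPC1, which moves cholesterol out of lysosomes, stood at 347, 359 and 356 CPM in control and at 147, 141 and 141 CPM in shPBRM1 replicates. The groups lay far apart, and NPC1 fell by 1.31 (SE 0.025, edgeR adjusted p = 9.13e-19). LIPA, the lysosomal lipase that frees cholesterol from its esters, was named after its values had been seen and fell by 0.93. In the annotation LIPA is overlapped on the opposite strand by IFIT1, IFIT2 and IFIT3, whose part in its value was not tested. NPC2, the partner of NPC1, instead rose by 0.15. GRAMD1B and GRAMD1C, which move plasma membrane cholesterol inward, went opposite ways at low levels. GRAMD1B fell by 2.53 from 2.71, 2.98 and 3.01 CPM to 0.433, 0.463 and 0.596 CPM, and GRAMD1C rose by 1.147 from 1.96, 2.37 and 2.36 CPM to 5.68, 4.88 and 4.33 CPM. VLDLR, a lipoprotein receptor, rose by 1.03 (SE 0.054, edgeR adjusted p = 2.69e-16), from 53.4, 56.3 and 58.5 CPM to 119, 109 and 116 CPM.

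Of 9 tested genes among the LXR receptors, their partners and targets, which promote cholesterol export, 5 fell (55.6%, beside 33.2% of all tested genes lower and 64.7% called in either direction) and 4 did not pass, with a median log2 fold change of -0.44. Without shPBRM1 replicate 1, 1 of them rose. ABCA1, the cholesterol exporter, stood at 13.8, 13.4 and 13.7 CPM in control and at 5.95, 4.37 and 6.21 CPM in shPBRM1 replicates. The groups did not overlap, and ABCA1 fell by 1.28 (SE 0.16, edgeR adjusted p = 1.05e-10). The other 4 that fell, named after their values had been seen, were MYLIP, PLTP, RXRA and NR1H2, by 0.89, 0.80, 0.48 and 0.44. Among 4 tested enzymes that make or clear oxysterols, which activate LXR, 2 fell (50%, beside 33.2%). CH25H had 13, 14 and 36 counts in control replicates and none in any shPBRM1 library. Its control mean was 7.75-fold above a floor of 3 counts per shPBRM1 library, with no allowance for error in the control counts. CYP27A1 had 12, 28 and 14 counts in control and 9, 6 and 15 counts in shPBRM1 replicates, with a log2 fold change of -1.10 (edgeR adjusted p = 0.0373), a call lost with the replicate number as a block (adjusted p = 0.0632). The oxysterol count went from 2 to 1 without control replicate 2, shPBRM1 replicate 1 or shPBRM1 replicate 2.

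Of 11 other tested SREBP target genes, 5 fell (45.5%, beside 33.2% of all tested genes) and 3 rose (27.3%, beside 31.5%), with a median log2 fold change of 0.07. LPIN1, a phosphatidate phosphatase, fell by 0.72 from 81.0, 81.0 and 80.5 CPM to 50.3, 46.8 and 50.02 CPM. ELOVL5, an elongase of polyunsaturated fatty acids, rose by 0.72 from 456, 439 and 459 CPM to 762, 734 and 738 CPM. The lower count went to 2 without control replicate 1 or control replicate 2 and to 3 without shPBRM1 replicate 2 or shPBRM1 replicate 3, and the higher count went to 5 without shPBRM1 replicate 3. Of 17 tested genes of fatty acid elongation and activation, 9 rose (52.9%) and 5 fell (29.4%), with a median of 0.12. ACSL5, an acyl-CoA synthetase, fell by 3.17 (SE 0.23, edgeR adjusted p = 2.38e-12) from 3.40, 4.77 and 4.70 CPM to 0.500, 0.360 and 0.533 CPM, and ACACB, the mitochondrial acetyl-CoA carboxylase, by 1.31 from 2.60, 2.82 and 3.17 CPM to 1.32, 1.03 and 1.10 CPM. Both had low levels and no overlap between the groups.

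Of 10 genes of glycerolipid assembly, 5 rose and 2 fell (70% in either direction, near the 64.7% of all tested genes), with a median of 0.18. PLIN3, a lipid droplet coat protein, and AGPAT5, an acyltransferase of phosphatidate synthesis, rose by 0.75 and 0.74. PLIN3 went from 39.0, 41.0 and 37.0 CPM in control to 68.9, 62.9 and 64.5 CPM in shPBRM1 replicates, and AGPAT5 from 131, 130.2 and 133 CPM to 213, 219.5 and 228 CPM, with no overlap between the groups. Of 10 genes of the branch that turns isoprenoids into dolichol, ubiquinone and prenyl groups, 3 rose and 1 fell (40%, below that share), with a median of 0.04. PDSS1, which makes the ubiquinone side chain, rose by 0.61, from 4.85, 4.79 and 4.98 CPM to 6.78, 7.68 and 7.91 CPM. FNTA, a subunit of the prenyl transferases, fell by 0.51, from 96.0, 106 and 101 CPM to 71.9, 69.7 and 70.7 CPM. The lower count went to 2 without control replicate 2.

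**Figure D4:**
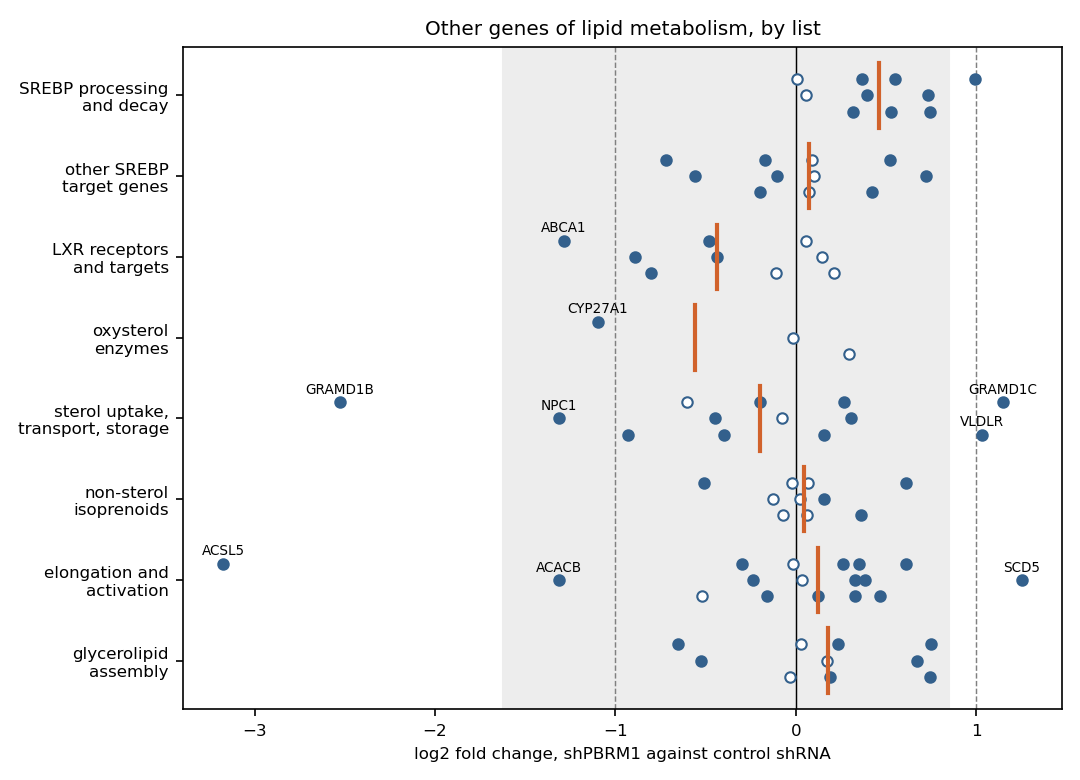
Log2 fold change of the tested genes of 8 other lists of lipid genes in shPBRM1 against control cells, with 1 point per gene, open where the adjusted p was not under 0.05, and an orange bar at the median of each list. Dashed lines mark a change of 2-fold, where genes beyond them are named, and the grey band holds the log2 fold changes from the 5th to the 95th percentile of all tested genes; CH25H, with no counts in shPBRM1 libraries, is left out. SPRING1 is just inside the line at 0.99, and the median of SREBP processing and decay is 0.46.

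Of the 31 genes, 20 are overlapped by another gene in the annotation, 12 of them by a tested gene. The library kit marks strand, but whether counting used it is not given in the sources used here. Reads of overlapping genes may therefore have been shared or left uncounted. ACAT2 overlaps TCP1, which rose by 0.53, and SOD2, which fell by 0.88, both on the opposite strand. VPS51, which overlaps TM7SF2 on the same strand, rose by 0.36. The part of such overlaps in the values was not tested.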

How the data were processed

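RNA-seq of 3 control and 3 shPBRM1 BT-549 libraries was analyzed. The values are the raw counts, not normalized, that the authors deposited for each gene symbol. The submitters' processing notes name CASAVA 1.8.2, STAR 2.7.9a, featureCounts, DESeq2 1.24.0 and GRCh38.p7, without their settings. Groups and replicate numbers come from the sample titles. The columns of the control libraries carry no group name and were matched by cell line, replicate number and the absence of shPBRM1.

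The table held 37887 rows, 14 with dates in place of symbols, and 12608 had no count. Counts were tested here with edgeR 4.0.16 in R 4.3.3 (TMM, filterByExpr and the quasi-likelihood F-test) and adjusted by Benjamini-Hochberg over 15450 genes. Each standard error reflects how log2 CPM varied within the groups, after adding 2 counts. Depth, 36429395 to 65096297 counts per library, puts a floor of 3 counts at 0.0471 to 0.0804 CPM, for counting error only. Same-numbered libraries deviated together (correlations of 0.734, 0.593 and 0.419 over 5622 genes, which are not independent, against -0.671 to 0.464 for different numbers, the highest being control 2 with shPBRM1 3), so that the number was also fitted as a block. The pairing comes from the numbers in the titles.

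The 31 genes, the other lists, the rule for named genes and the alternatives were chosen with earlier results of these data known. By that rule, library values are given for the 3 largest called changes in each direction in each class, for INSIG1, INSIG2, SREBF1, SREBF2, SCAP, FASN, SCD and PBRM1, and, for other lists, for genes past a fold change of 2 or otherwise the 2 largest called changes. Alternatives were DESeq2 1.42.0, RLE factors, library size alone, no filter, a minimum mean of 50 counts, the block, an adjusted p under 0.001, and each library left out. Positions, exon lengths and overlaps are those of GENCODE v29 (GRCh38). On simulated counts with 200 genes changed, edgeR recovered 106 at 1.25-fold (15385 genes tested), 148 at 1.5-fold (15391 tested) and 157 at 2-fold (15384 tested). False calls numbered 9, 17 and 13. In the data, 10000 of 15450 genes were called, far more than were changed in the simulation. The recovered shares therefore cannot be taken as the power of the test here. Some genes of the pathway were not analysed here.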

Additional observations from a re-analysis of the deposited data

How the results depend on the processing

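Each of the 31 genes kept its direction under DESeq2, RLE factors, library size alone, no filter, the replicate block, a minimum mean of 50 counts and each library left out in turn, and 23 kept their call with every library left out. Over the libraries left out, the genes higher numbered 16 to 18 and those lower 7 to 9. Scaling by library size alone moved the median log2 fold change of all genes to -0.06, and that of the sterol enzymes to 0.13, the regulators to 0.087 and the fatty acid genes to -0.10. It also ended the call of FASN and made LSS pass (log2 fold change -0.10, adjusted p = 0.0474). The replicate block gave 26 called genes, with INSIG1 added, and among the other lists it left 1 oxysterol enzyme lower and made ACSS2 (adjusted p = 0.0477) and AGPAT1 (adjusted p = 0.0279) pass, so that other SREBP targets higher numbered 4 and glycerolipid genes higher 6. Among the other calls of the 31 genes and PBRM1 it changed none. With a minimum mean of 50 counts, 941 genes were lower and 270 higher past 2-fold, and fewer genes were tested. Oxysterol enzymes lower numbered 1 under DESeq2, no filter and an adjusted p under 0.001, 0 with a minimum mean of 50 counts, and 1 to 2 over the libraries left out. Other SREBP targets lower numbered 3 under DESeq2, 2 at an adjusted p under 0.001 and 2 to 5 over the libraries left out, and those higher 3 to 5. LXR genes higher ranged from 0 to 1. Genes of the non-sterol isoprenoid branch lower numbered 2 with library size alone and with a minimum mean of 50 counts, and 1 to 2 over the libraries left out. Genes of elongation and activation lower numbered 2 at an adjusted p under 0.001. Beyond fewer genes tested, the cause of these shifts was not tested. CH25H and CYP27A1 had at most 36 counts in any library, and 3 counts stood for 0.0471 to 0.0804 CPM.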
